A study of Mus musculus with 4 samples.

Results

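The 9 genes described here, which p53 switches on to kill a cell, were followed across 4 libraries of mouse neural stem cells. They were taken by symbol from the table of gene levels, and all of them (Bbc3, Pmaip1, Bax, Fas, Tnfrsf10b, Perp, Apaf1, Aen and Pidd1) were found among 55487 genes. The cells came from the neocortex of E12.5 embryos and were grown with bFGF and EGF. The control was a Tut1f/f culture given empty lipid nanoparticles (LNP). The other 3 cultures received LNP with mRNA for Cre recombinase, which removes DNA between loxP sites, for 3 days. They were Tut1f/f (called Tut1 KO), p53f/f (called Trp53 KO) and Tut1f/f;p53f/f (called double KO), so the floxed Tut1 alleles were also carried by the control. The control and Tut1 KO cultures carried the same floxed alleles. The floxed line differs in every other comparison below, and its part was not tested. Cre came from transfected mRNA and not from a transgene, so no promoter restricted it to a cell type. The labels name only the brain and neural cells. Each group is 1 library, and nothing given here says whether a library came from 1 embryo or several. Runs of 4 values below are in the order control, Tut1 KO, Trp53 KO, double KO unless named.

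p53, the product of Trp53, is a transcription factor that is stabilised by DNA damage and other stress. Among its target genes are those that arrest the cell cycle and those that open a path to apoptosis. Within the mitochondrial path, BH3-only proteins release BAX and BAK to permeabilise the outer mitochondrial membrane, cytochrome c then escapes, and APAF1 assembles the apoptosome that activates caspase-9. In the other path, death receptors at the cell surface recruit caspase-8. Tut1 encodes a terminal uridylyltransferase that acts on U6 snRNA, and the study asked whether death of neural stem cells that lack it depends on Trp53.

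Values are TPM, transcripts per 1000000, a unit corrected for transcript length. The labels name a short-read kit and the series text long reads, for which such a correction would distort levels between genes, so ratios between genes hold only if the reads were short. A difference between libraries is given as a difference of log2(TPM + 1), on which 1 is a 2-fold change for well expressed genes and less than the true fold for low ones. A difference of 1 or more in size counts as a call, and only genes that reached 1 TPM in either library of a comparison were tested. A 1.5-fold threshold is on the same scale. "A against B" means A minus B, so that a negative value is a lower level in A. Since no group has a second library, replicate error is unknown, and the differences are described without tests or p-values. Every difference below is one between single libraries. TPM keeps no depth, so the depth of each library and the counting error of low values are unknown. In bulk cultures, fewer cells that express a gene and less RNA per cell cannot be told apart.

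The labels were checked first. The Trp53 level was 120, 100.4, 39.7 and 41.9 TPM, lower in both libraries labelled as Trp53-deleted but not absent. Those 2 are called Trp53-deleted below by their label, and what the remaining transcript encodes was not analysed here. The Tut1 level was 12.2, 29.8, 12.5 and 13.7 TPM, highest in the library labelled Tut1 KO, so no library labelled as Tut1-deleted was lower than its partner. Only exon 2 is removed, and the study gauged the deletion at that exon, so a level over the whole gene does not check the Tut1 label. Exon usage was not analysed here, and directions drawn from the library labelled Tut1 KO rest on its label. Xist stood at 0.0097, 188, 204 and 0.0089 TPM. The Y-linked genes Ddx3y, Eif2s3y, Kdm5d and Uty were listed at 0 where Xist was high and reached at least 5.54 TPM where it was not. Xist and the Y-linked genes thus switch between present and absent within every comparison below except that of double KO with control, and their part was not tested. In that one, Kdm5d (1.03) and Eif2s3y (-0.81) still differed in level. All 12 of 12 neural stem cell markers, among them Nes, Sox2, Vim and Fabp7, had at least 1 TPM in every library, with a summed level of 10824 to 12744 TPM. Of 8 neuronal markers, 5 had at least 1 TPM, summing to 163 to 232 TPM, of which Map2 held most, and Neurod6 was listed at 0 in all 4 libraries. The summed level of 5 oligodendrocyte markers was 10.7 to 16.0 TPM. None of 6 leukocyte, 5 endothelial or 6 fibroblast markers reached 1 TPM in any library, and their sums ran from 0.267 to 0.747, from 0.703 to 1.17 and from 0.296 to 0.496 TPM. Aif1, Cx3cr1, Tyrobp, Cdh5, Lum and Dcn among them were listed at 0 throughout.

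The promoters are shown before the levels because these genes are grouped by a shared regulator. RefSeq promoter windows of 300 bases (GRCm38.p6, from 250 bases before to 50 bases after a transcription start) were found for 6 of the 9 genes, 9 windows in all. They were Bbc3 with 3 starts, Aen with 2, and Bax, Pidd1, Apaf1 and Fas with 1 each. The search used the 10-base p53 half-site consensus, which reads the same on both strands, so that 1 pass covers both. Its 4-base core had to match, and 1 mismatch was allowed outside it. Capitals mark these matches in Bax. In Bbc3 and Aen they mark a 20-base pair found by a looser rule, described after the sequences, of which 1 half-site meets the rule above. Positions count from the transcription start.
Bbc3, chr7:16309333-16309632, plus strand: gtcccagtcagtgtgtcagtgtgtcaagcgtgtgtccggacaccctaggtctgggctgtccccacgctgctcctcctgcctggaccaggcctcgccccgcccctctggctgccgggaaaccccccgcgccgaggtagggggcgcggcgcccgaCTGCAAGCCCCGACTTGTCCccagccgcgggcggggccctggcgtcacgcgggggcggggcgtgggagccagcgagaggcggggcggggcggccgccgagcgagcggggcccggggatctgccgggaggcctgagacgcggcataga
Aen, chr7:78895808-78896107, plus strand: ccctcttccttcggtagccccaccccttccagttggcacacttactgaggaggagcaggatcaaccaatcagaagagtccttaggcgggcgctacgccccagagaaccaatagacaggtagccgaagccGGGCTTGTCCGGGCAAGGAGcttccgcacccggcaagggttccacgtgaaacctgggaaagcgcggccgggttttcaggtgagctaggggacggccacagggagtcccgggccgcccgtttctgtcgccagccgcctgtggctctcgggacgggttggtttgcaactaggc
Bax, chr7:45466849-45467148, minus strand: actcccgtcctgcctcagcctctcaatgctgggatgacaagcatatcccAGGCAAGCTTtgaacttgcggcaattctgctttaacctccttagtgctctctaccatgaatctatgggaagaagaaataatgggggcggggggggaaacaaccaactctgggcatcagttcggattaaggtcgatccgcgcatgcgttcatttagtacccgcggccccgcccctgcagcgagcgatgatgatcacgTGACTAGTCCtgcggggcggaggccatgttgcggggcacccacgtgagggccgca
Apaf1, chr10:91082694-91082993, minus strand: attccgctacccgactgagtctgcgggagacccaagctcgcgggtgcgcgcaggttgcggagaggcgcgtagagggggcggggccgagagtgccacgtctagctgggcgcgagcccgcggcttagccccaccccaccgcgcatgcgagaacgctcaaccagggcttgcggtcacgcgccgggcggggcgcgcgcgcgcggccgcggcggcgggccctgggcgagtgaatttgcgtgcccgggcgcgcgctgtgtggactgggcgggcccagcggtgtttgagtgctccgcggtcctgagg

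Of the 9 windows, 5 held a half-site with at most 1 mismatch, where 39.6% of all 32851 RefSeq promoter windows did, and they belonged to 4 of the 6 genes. In Bbc3 it was CGACTTGTCC at -87, with 1 mismatch. An exact half-site stood in 3 of the 9 windows, those of Aen and Bax, against 8.36% of all windows. In Aen it was GGGCTTGTCC, at -121 from one start and at 11 from the other, the same bases in overlapping windows. In Bax it was AGGCAAGCTT at -201, with a second half-site, TGACTAGTCC, at -5 that had 1 mismatch. Pidd1 held TGGCTAGCCC at -49 with 1 mismatch. None of these windows held a pair of such half-sites within 13 bases of each other, which 1.39% of all windows did. A looser rule, chosen after the sequences were seen, took 2 half-sites with no base between them and at most 3 mismatches in all, as 0.572% of windows had. It matched Bbc3 with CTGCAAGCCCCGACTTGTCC at -97 and Aen with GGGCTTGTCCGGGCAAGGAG. The windows of Apaf1 and Fas held no match. A match is a stretch of letters and not a measured binding site, and p53 sites that lie outside these windows, in introns for example, were not searched.

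Across the 4 libraries, 8 of the 9 genes were higher in both Trp53-intact libraries (control and Tut1 KO) than in both Trp53-deleted ones (Trp53 KO and double KO), and Apaf1 was the exception. Among all 15095 genes with a TPM of at least 1 in some library, 14.4% had this order. The same 8 genes were highest in the library labelled Tut1 KO, as were 22.8% of all genes, with the control next, as in 7.93% of all genes. Apaf1 was highest in the Trp53 KO library, as were 20.8% of all genes. The control alone lay above both Trp53-deleted libraries for 37.8% of all genes, and for 8 of the 9, as the order just given already requires for those 8. For 5 genes (Bbc3, Pmaip1, Fas, Tnfrsf10b and Aen) the lowest Trp53-intact library stood at least 1.5-fold above the highest Trp53-deleted one, as for 0.841% of all genes. The summed level of the 9 genes was 482, 680, 310.1 and 319 TPM. Bax alone made up 63.2% to 70.7% of that sum.

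**Figure D1:**
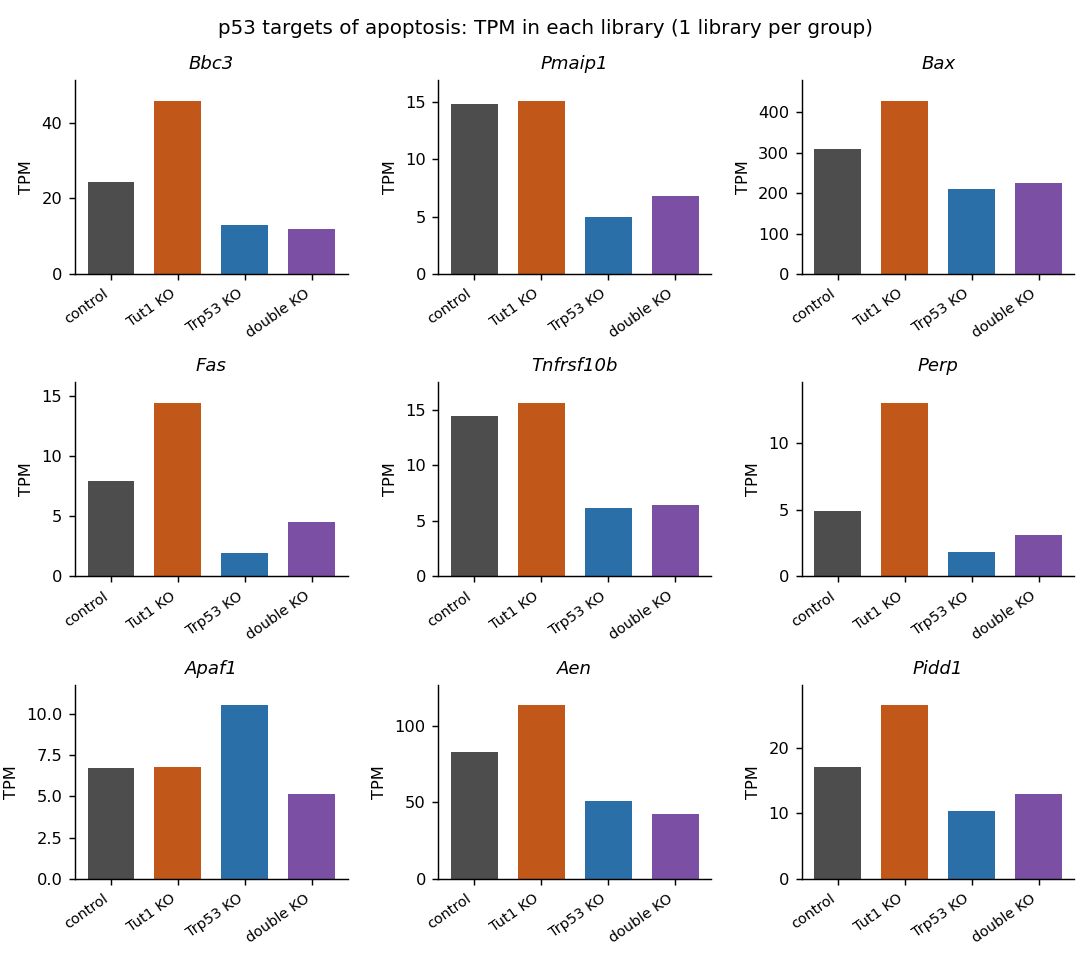
TPM of the 9 genes in each of the 4 libraries. Each bar is 1 library, so there are no error bars, and each panel has its own axis from 0. All panels but Apaf1 show the control and Tut1 KO bars above the Trp53 KO and double KO bars, and Apaf1 is highest in the Trp53 KO library at 10.5 TPM.

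Bbc3 and Pmaip1 encode PUMA and NOXA, the BH3-only proteins that bind and neutralise the BCL2-like guardians of the mitochondrion. Bbc3 (ENSMUSG00000002083, plus strand of chromosome 7 from 16308393 to 16318205 in GRCm38, as all gene positions here) measured 24.3, 45.8, 12.99 and 11.8 TPM. The Tut1 KO library stood apart as the highest, and the Trp53-deleted libraries lay close together at the bottom. Trp53 KO against control gave -0.86, and double KO against Tut1 KO gave -1.87, the lowest value of the 9 genes there. Pmaip1 (ENSMUSG00000024521, plus strand of chromosome 18 from 66458533 to 66465565) measured 14.9, 15.1, 4.99 and 6.79 TPM. Here the control and Tut1 KO libraries were nearly level, and both were well above the others. Its values in those comparisons, which differ in the Trp53 label, were -1.41 and -1.05. Both BH3-only genes were thus lower in both Trp53-deleted libraries, but Bbc3 was 1.89 times as high in the Tut1 KO as in the control library, and Pmaip1 1.02 times.

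Bax is the pore-forming effector of the mitochondrial path. It was the most abundant of the 9 genes in every library (ENSMUSG00000003873, minus strand of chromosome 7 from 45461697 to 45466898), at 309, 430, 211 and 225 TPM. Its differences of -0.55 and -0.93 for the Trp53 label were smaller than those of the BH3-only genes and did not reach the threshold. The annotation places a predicted gene, Gm45808, over Bax exons on the same strand, but at 0.267 TPM or less it hardly touches the sum of both. Against the 4 guardian genes Bcl2, Bcl2l1, Bcl2l2 and Mcl1, whose summed level was 135, 109, 98.8 and 118 TPM, the level of Bax was 2.29, 3.95, 2.13 and 1.92 times that sum. The ratio was highest in the library labelled Tut1 KO, where Bax was at its highest and the guardians were lower than in the control. Bbc3 and Pmaip1 together came to 0.29, 0.56, 0.18 and 0.16 of the guardian sum.

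Fas and Tnfrsf10b encode the death receptors for FAS ligand and TRAIL. Fas (ENSMUSG00000024778, plus strand of chromosome 19 from 34290666 to 34327772) measured 7.92, 14.4, 1.97 and 4.49 TPM, highest in the Tut1 KO and lowest in the Trp53 KO library. It had the widest range of the 9 genes, 2.38 on the log2 scale. Its level in the Trp53 KO library was 0.248 of the control, the lowest such share of the 9 genes, a difference of -1.59. Double KO against Tut1 KO gave -1.49. Tnfrsf10b (ENSMUSG00000022074, plus strand of chromosome 14 from 69767472 to 69784411) measured 14.5, 15.6, 6.13 and 6.47 TPM. Its libraries formed 2 tight pairs, split by the Trp53 label, with differences of -1.12 and -1.15. The TRAIL gene Tnfsf10 was listed at 0 in all 4 libraries. The gene of FAS ligand was sought under the symbol Faslg, which was not found, so its level is not given.

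Perp encodes a tetraspan membrane protein that takes part in p53-dependent death and in desmosomes. It was the lowest of the 9 genes in every library but the Tut1 KO (ENSMUSG00000019851, plus strand of chromosome 10 from 18845020 to 18857073), at 4.89, 12.99, 1.79 and 3.07 TPM. Only the Tut1 KO library was above 10 TPM. Its differences were -1.08 and -1.78 for the Trp53 label.

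Apaf1, the scaffold of the apoptosome, did not follow the other genes (ENSMUSG00000019979, minus strand of chromosome 10 from 90989311 to 91082770). It measured 6.70, 6.78, 10.5 and 5.15 TPM. The Trp53-intact libraries were level, and the Trp53-deleted ones lay on either side of them. Trp53 KO against control gave 0.58, whereas double KO against Tut1 KO gave -0.34.

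Aen and Pidd1 act around the core machinery. Aen encodes a nuclease that enhances apoptosis, and Pidd1 the death domain protein that assembles the PIDDosome, which activates caspase-2. Aen (ENSMUSG00000030609, plus strand of chromosome 7 from 78895854 to 78911209) measured 82.8, 113, 50.7 and 42.5 TPM, next below Bax throughout. Its differences were -0.70 and -1.40 for the Trp53 label. Pidd1 (ENSMUSG00000025507, minus strand of chromosome 7 from 141438113 to 141444025) measured 17.0, 26.4, 10.4 and 12.996 TPM, with differences of -0.66 and -0.97. For both genes the Tut1 KO library was highest, and the double KO library was the lowest for Aen but not for Pidd1.

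**Figure D2:**
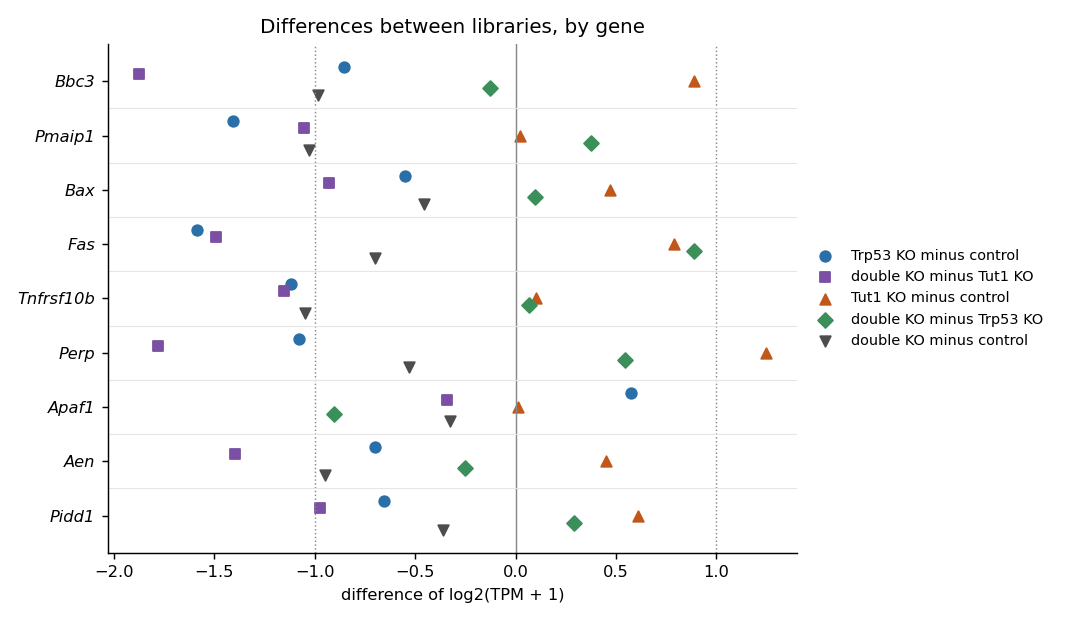
Differences of log2(TPM + 1) between libraries, with 1 row for each gene and 1 symbol for each of 5 comparisons. Dotted lines mark the call at 1 and -1. Both comparisons of the Trp53 label lie left of 0 for 8 genes, and Tut1 KO against control lies at or right of 0 for all 9, from 0.01 to 1.25.

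The Trp53 label was compared with Tut1 intact (Trp53 KO against control) and with the Tut1 label (double KO against Tut1 KO), which share no library. In Trp53 KO against control, where Cre treatment and the floxed line differed as well, Fas, Pmaip1, Tnfrsf10b and Perp were lower by at least 1. These are 4 of the 9 genes, where 2.37% of 14586 genes tested were lower by as much, and none was higher (2.05%). At 1.5-fold, 7 of 9 were lower (5.99% of all genes), and 8 of 9 lay below 0 (58.8%). Among genes of at least 10 TPM, Pmaip1 and Tnfrsf10b were lower, 2 of 7 (1.91%). The median of the 9 genes was -0.86, where the median of all genes was -0.05. In double KO against Tut1 KO, where both cultures received Cre, 6 of 9 genes (Bbc3, Perp, Fas, Aen, Tnfrsf10b and Pmaip1) were lower by at least 1, against 2.21% of 14601 genes, and none was higher (2.43%). All 9 lay below 0, as did 40.9% of all genes, and 8 were lower by 1.5-fold (5.81%). Their median was -1.15, that of all genes 0.08. In both comparisons, 8 genes lay below 0, as did 22.2% of all genes, and 4 genes (Fas, Pmaip1, Tnfrsf10b and Perp) were lower by at least 1, as were 0.384% of all genes. Adding 5 in place of 1 to TPM, which shrinks low genes, left 0 genes called lower in Trp53 KO against control. It left 4 called lower in double KO against Tut1 KO, with a median of -0.92. With the median difference of all genes set to 0, 8 were called lower there.

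**Figure D3:**
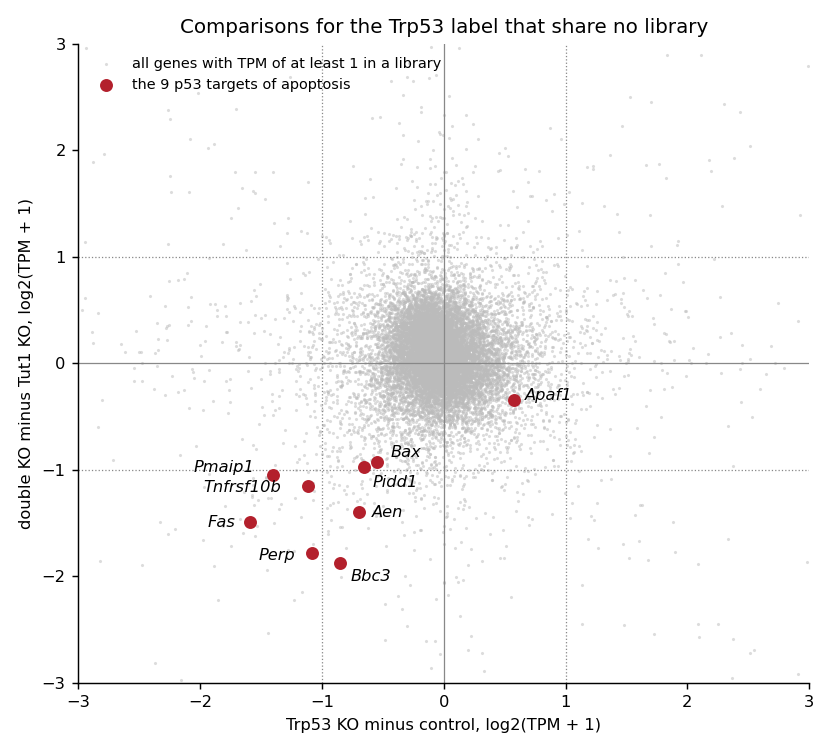
Difference of log2(TPM + 1) with each gene at its value for Trp53 KO against control on the x axis and for double KO against Tut1 KO on the y axis, which share no library. Red points are the 9 genes and grey points the other genes with a TPM of at least 1 in some library. The axes end at 3 and -3, and 83 genes lie outside them. Apaf1 lies right of 0 at 0.58, and the other 8 red points sit below 0 on both axes.

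The Tut1 label was compared with Trp53 intact (Tut1 KO against control) and with Trp53 deleted (double KO against Trp53 KO), again from separate libraries. These comparisons reuse the libraries of those for the Trp53 label, so they add no independent samples. With Trp53 intact, all 9 genes lay above 0, as did 40% of 14640 genes, but Perp alone reached 1 (1.25, against 1.89% of all genes). Perp was at 0.86 with 5 added to TPM, and Bbc3 joined it at 1.01 under quantile normalization. At 1.5-fold, 4 genes were higher (Perp, Bbc3 at 0.89, Fas at 0.79 and Pidd1 at 0.61), against 5.74% of all genes. Bax and Aen followed at 0.47 and 0.45. Tnfrsf10b (0.10), Pmaip1 (0.02) and Apaf1 (0.01) were nearly level. The median of the 9 genes was 0.47 and that of all genes -0.09. Cre treatment differed in this comparison too, and its part was not tested. The study reports introns retained after Tut1 loss. A level over the whole gene does not separate such transcripts, and splicing of the 9 genes was not analysed here.

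GC content moved with the same comparison. Over 12197 protein-coding genes, Tut1 KO against control had a Spearman's rho of 0.409 with the GC content of the longest transcript, as a description across genes, and double KO against Tut1 KO had -0.442. The median GC content of these genes was 49.7%. Bbc3 (65.2%), Bax (63.5%), Pidd1 (57.2%) and Aen (51.6%) lie above it, and each was higher by 0.45 or more in Tut1 KO against control. Of the members below it, Tnfrsf10b (48.9%), Apaf1 (46.0%) and Pmaip1 (42.1%) were the 3 nearly level genes, whereas Perp (48.0%) and Fas (43.9%) were higher. With a trend on GC content and length removed from each library, the same comparison gave 0.67 for Bbc3, 0.23 for Bax, 0.50 for Pidd1 and 0.45 for Aen. It gave 1.22 for Perp, 0.82 for Fas, 0.17 for Apaf1, 0.16 for Pmaip1 and 0.11 for Tnfrsf10b, so all 9 stayed above 0. In double KO against Tut1 KO, removing the trend gave -1.64 for Bbc3, -0.70 for Bax, -0.84 for Pidd1 and -1.38 for Aen. The others were at -1.77 (Perp), -1.55 (Fas), -0.48 (Apaf1), -1.20 (Pmaip1) and -1.16 (Tnfrsf10b), so all 9 stayed below 0.

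With Trp53 deleted, the genes showed no shared direction with the Tut1 label. In double KO against Trp53 KO, 6 of 9 lay above 0, as did 56.8% of 14585 genes, and none reached 1 in either direction (higher 1.89%, lower 1.97%). Those 6 lay above 0 in both comparisons of the Tut1 label, as did 22.1% of all genes. Fas was the highest at 0.89, followed by Perp (0.55), Pmaip1 (0.38) and Pidd1 (0.29). Bax (0.10) and Tnfrsf10b (0.07) were nearly level. Bbc3 (-0.13), Aen (-0.25) and Apaf1 (-0.90) lay below 0, as did 43.2% of all genes. The median was 0.10, that of all genes 0.04. On log2(TPM + 1), Fas was higher by 1.5-fold (5.24% of all genes) and Apaf1 lower (5.55%). For low genes these counts depend on the pseudocount. The plain TPM ratios were 2.28 for Fas, 1.72 for Perp and 0.491 for Apaf1, and with 0.1 added to TPM, Fas (1.15) and Apaf1 (-1.01) passed 1.

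The control and the double KO differ in the Trp53 label, the Tut1 label, Cre treatment and the floxed line together, which cannot be told apart here. In both, Y-linked genes were present and Xist was near 0. All 9 genes were lower in the double KO library, as were 51.4% of 14647 genes. Tnfrsf10b (-1.05) and Pmaip1 (-1.03) passed 1, against 2.31% of all genes, and 5 genes were lower by 1.5-fold (6.23%). With 5 added to TPM, Tnfrsf10b (-0.76) and Pmaip1 (-0.75) no longer passed 1. Bbc3 (-0.98) and Aen (-0.95) came next, and Fas (-0.70), Perp (-0.53), Bax (-0.45), Pidd1 (-0.36) and Apaf1 (-0.33) followed. The median was -0.70 and that of all genes -0.01.

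Partner genes of the pathway were taken from 7 lists. Of the other p53 targets linked to cell death, 3 of 7 tested were lower by at least 1 in Trp53 KO against control (2.37% of all genes) and 3 of 7 in double KO against Tut1 KO (2.21%), with medians of -0.95 and -0.67. The stress-induced regulator Trp53inp1 (-1.58 and -1.26) and the receptor Eda2r (-1.56 and -1.33) passed in both. The RNA-binding protein gene Zmat3 passed in the first (-1.02, against -0.67), and the AKT inhibitor gene Phlda3 in the second (-1.60, against -0.95). Siva1 (0.04 and -0.21) and Triap1 (-0.04 in both) of the same list were nearly level. Of 10 p53 targets of feedback and arrest, 2 were lower in the first comparison and 3 in the second, beside the same shares of all genes, with medians of -0.61 and -0.63. The CDK inhibitor gene Cdkn1a (-1.28 and -1.75) and the cyclin gene Ccng1 (-1.57 and -1.07) passed in both, and the stress sensor Sesn2 in the second (-1.19, against -0.82). In the second, 3 of the 10 lay above 0, as did 59.1% of all genes. They were Sesn1 (0.01 and 0.14), Gadd45a (-0.37 and 0.32) and Ppm1d (-0.28 and 0.05).

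In the lists of the machinery itself, few genes passed the threshold, and with 2 to 11 genes a list, single calls beside the shares of all genes called (1.89% to 2.43% in the comparisons named here) say nothing of the list. Among 4 guardians of the BCL2 family, Bcl2l2 just passed the threshold as lower in Trp53 KO against control, at 11.2 compared with 23.4 TPM, but by the annotation it shares exons with a predicted gene, so its value is uncertain. Double KO against Tut1 KO gave 0.04. Bcl2 itself stayed between 4.71 and 7.04 TPM in all libraries. None of the other genes that promote apoptosis in the family passed 1 in any comparison, where Bad (-0.63 in double KO against Trp53 KO) and Bcl2l11 (-0.46 in double KO against control) were the most different. The effector Bak1, which acts beside Bax, had 76.0 to 90.6 TPM, and its differences for the Trp53 label were -0.02 and -0.07. Of 11 apoptosome and caspase genes tested, 1 was lower in Trp53 KO against control (2.37% of all genes) and 1 higher in double KO against Trp53 KO (1.89%). Both calls were Casp9, the caspase that Apaf1 activates, at 9.49, 4.58, 2.29 and 6.32 TPM, with differences of -1.67 and 1.16. The caspase inhibitor Xiap differed most in Tut1 KO against control (-0.62). No adaptor, initiator or receptor of the death receptor list passed 1, and Ripk1 (-0.65 in Tut1 KO against control, with exons shared with a predicted gene) and Cflar (-0.52 in double KO against control) were the most different. Of the PIDDosome partners, the effector Casp2 was higher in double KO against Tut1 KO (1.09), at 14.6 compared with 6.32 TPM, opposite to Pidd1. The adaptor Cradd differed most in Tut1 KO against control (-0.61).

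**Figure D4:**
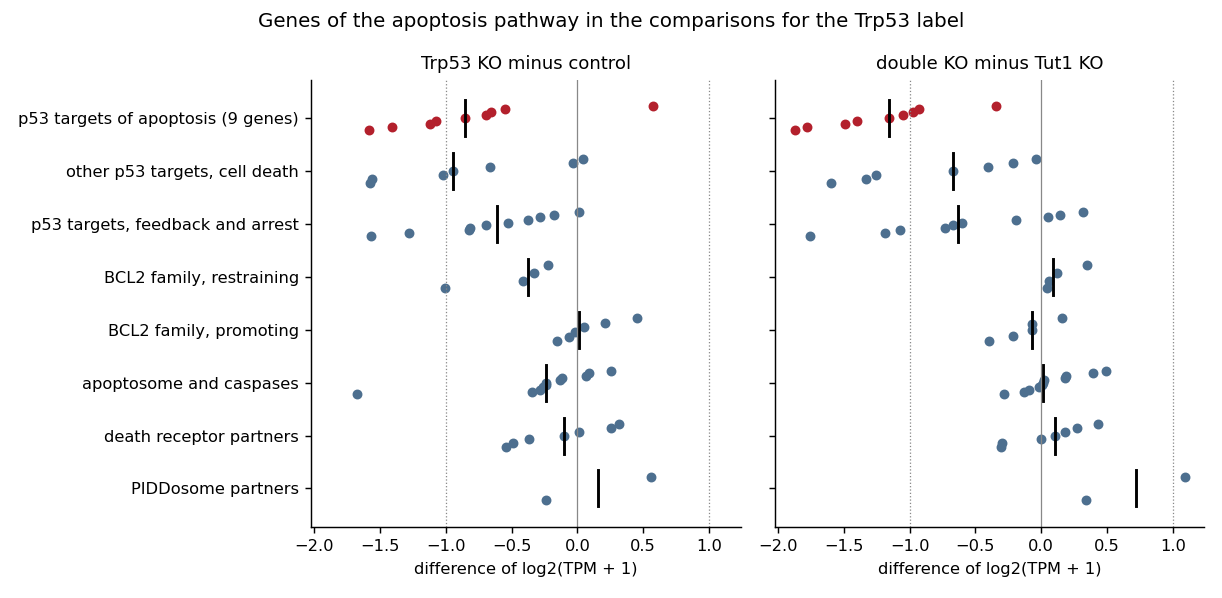
Differences of log2(TPM + 1) in Trp53 KO against control (left) and double KO against Tut1 KO (right), with 1 point for each gene tested, by list, and a black bar at each list's median. The 3 p53 target lists have medians between -0.61 and -1.15, and the medians of the other lists lie between -0.37 and 0.72.

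Genes whose profile over the 4 libraries was nearest to that of the 3 members with the widest range were also taken, by the Euclidean distance of log2(TPM + 1) centred on its mean, over 8361 genes. With 4 points this is a description of these libraries. Nearest to Fas were Ckmt1, a mitochondrial creatine kinase (distance 0.30, with 19.4, 26.0, 5.29 and 11.2 TPM), the transporter-like gene Svop (0.32) and the snoRNA host gene Snhg20 (0.36), which shares exons with a microRNA and a predicted gene. Nearest to Perp were Apoe, the lipid carrier (0.26, with 37.6, 96.4, 20.6 and 32.5 TPM), the phosphatase-related gene Ptprv (0.46) and the zinc finger gene Zfp317 (0.57). Nearest to Bbc3 were Phlda3 (0.23, with 122, 186, 62.9 and 60.6 TPM), the secreted stress factor Gdf15 (0.36) and the ephrin gene Efna3 (0.39).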

How the data were processed

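The authors deposited 1 table of TPM for 55487 Ensembl gene IDs in 4 libraries. The submitters' processing notes name Trimmomatic, HISAT2 and StringTie and the build mm10. The notes give no versions. The study's list of software gives a version of Trimmomatic, but names neither HISAT2 nor StringTie. Options and any pooling are not given in the sources used here. The labels name a stranded Illumina mRNA kit, whereas the series text speaks of Nanopore long reads. TPM holds no depth, so no interval for counting error was computed. Library totals were just under 1000000, with 14036 to 14145 genes of at least 1 TPM.

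Differences were taken on log2(TPM + 1) in Python 3.11.15 (pandas 2.3.3, numpy 2.4.6) for 5 comparisons of 1 library against 1. Figures used matplotlib 3.10.9 and rank correlations scipy 1.17.1. The code was tested on simulated libraries. Coordinates, GC content and shared exons came from GENCODE M21 (GRCm38), in which 99.5% of IDs were found, and promoters from RefSeq (GRCm38.p6). Promoter windows of Perp, Pmaip1 and Tnfrsf10b were not used here. The members, lists and rules were chosen with earlier results of these data known. Named were all 9 members, list genes with a difference of at least 1 in any comparison (or the 2 largest of a list), and the 3 profiles nearest to each of the 3 members with the widest range. Other list genes (Bak1, Siva1, Triap1, Tnfsf10, Sesn1, Gadd45a, Ppm1d) were added after their values were seen. Alternatives changed the pseudocount, the TPM minimum, the scaling and the threshold.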

Additional observations from a re-analysis of the deposited data

Results flagged for a closer look

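The genes Bbc3, Apaf1 and Aen moved in opposite directions in comparisons that ask about the same label from separate libraries. With 1 library per group, none of these gaps was tested. For the Tut1 label, the value with Trp53 intact exceeded that with Trp53 deleted by 1.02 for Bbc3 (0.89 and -0.13), by 0.92 for Apaf1 (0.01 and -0.90) and by 0.70 for Aen (0.45 and -0.25). For the Trp53 label, Apaf1 had 0.58 with Tut1 intact and -0.34 beside the Tut1 label, a gap that is again 0.92 because it is made from the same 4 libraries. The sex-linked transcripts pair the libraries exactly as these gaps do, so both cannot be told apart.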

How the results depend on the processing

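Of 131 recomputed medians and counts, 117 stayed on the same side of the threshold or within 1.5 times the reported count. A pseudocount of 5 left 0 genes called lower in Trp53 KO against control (4 as reported), 0 lower in double KO against control (2) and 0 higher in Tut1 KO against control (1), and moved the median of double KO against Tut1 KO to -0.92. A pseudocount of 0.1 gave 1 gene lower and 1 higher in double KO against Trp53 KO (0 and 0). With a minimum of 10 TPM, Fas and Perp left Trp53 KO against control and 2 genes were called lower; 5 genes were left in double KO against Trp53 KO, and their median turned to -0.13. Quantile normalization gave 2 genes higher in Tut1 KO against control. The 1.5-fold call gave 7 lower in Trp53 KO against control, 4 higher in Tut1 KO against control, 1 lower and 1 higher in double KO against Trp53 KO, and 5 lower in double KO against control. Of 349 recomputed differences of single genes, 330 kept direction and side of the threshold, 10 came to pass it, 9 no longer did and 0 turned sign. Leaving out the Tut1 KO library, a setting added after seeing the data, gave 8 genes with the control above both Trp53-deleted libraries, a count that could not be lower than with it. The replicate number pairs no samples, since each group has 1. An additive fit over the 2 pairs of libraries that share a Tut1 label was not run.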
